A study of Sus scrofa with 5 samples.

Results

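AKR1CL1, ALDH1A1, CRABP2 and RBP4 are genes of retinoid handling and of steroid-related oxidoreduction, and their mRNA was measured in the backfat of 5 female pigs on Affymetrix porcine arrays, 1 array per animal. A probe set, the group of oligonucleotides that together read 1 transcript, was taken for a member when the array's annotation gave it exactly 1 of these 4 symbols. The 4 genes, of 6765 on the array with a symbol of their own, gave 8 of the 23999 probe sets that are not controls: 3 of AKR1CL1, 2 of ALDH1A1, 1 of CRABP2 and 2 of RBP4. Where a gene has several, they are told apart as bright or dim, by a signal that also depends on the probes themselves. All 4 genes thus had at least 1 probe set. The 4 genes were chosen with their values in these animals already known, so the contrast between the groups is described for them and not tested.

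The animals came from an Iberian × Landrace backcross (BC1_LD) and had been placed in groups by the first principal component of carcass and intramuscular fatty acid traits. The H group, here BC4, BC5 and BC6, had more polyunsaturated fatty acids in muscle, and the L group, here BC2 and BC3, more saturated and monounsaturated ones. The study compared these traits over its whole groups, and L held 1 more animal there, which was not analysed here. All ate the same cereal-based commercial diet without restriction, and no sibs were in the same group. They were slaughtered at a similar age and, as the paper states, in a fasting condition. No treatment or engineered allele separated the groups, and each array stood for a separate animal.

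Retinol leaves the liver bound to retinol binding protein 4, encoded by RBP4, which adipose tissue also makes and secretes. Inside cells retinol is oxidized to retinal and then, by retinaldehyde dehydrogenases such as ALDH1A1, to retinoic acid, which CRABP2 carries to retinoic acid receptors in the nucleus. The aldo-keto reductases of the 1C family reduce ketosteroids and other carbonyl compounds, and AKR1CL1 is named as a relative of that family. In adipocytes of mice, ALDH1A1 and retinoic acid are known for their part in fat storage and in thermogenic gene expression.

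Values are log2 signals as deposited, so 1 unit is a doubling, and they run from a floor of 2.17 to 16.06. The array medians lay between 4.21 and 4.29, and 6623 probe sets (27.6%) were within 0.01 of the floor on all 5 arrays, where no level is measured. The label for RNA extraction speaks of liver but that for the tissue, like the paper, of backfat. The adipocyte markers FABP4, the fatty acid binding protein of fat cells, and LIPE, the hormone-sensitive lipase, were at 15.36 to 15.49 and 12.12 to 12.40 over the 5 arrays. Of the liver's own genes, albumin (ALB) was at 2.58 to 4.69, TTR at most at 2.23, and SERPINA1 at the floor throughout. In bulk tissue, fewer cells of a type and less RNA per cell cannot be told apart.

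No probe set of any gene passed the test between the groups over all 23999 (limma, p-value of 0.01, Benjamini-Hochberg adjusted p of 0.1 and fold difference of 1.2), which is 0.0%. At an unadjusted p under 0.05 there were 762 probe sets (3.18%). Of the 8 member probe sets, 7 were above the floor on some array. Their mean was lower in H for 6 and higher in H for 1, where 43.8% of the 17376 probe sets above the floor had a lower mean in H. The groups did not overlap, with H below L, for 1 of the 7, beside a background of 9.38% of the 12730 probe sets with 5 distinct values (20.9% in either direction). Since the members were chosen on this contrast, nothing is read from these counts.

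AKR1CL1 gave the largest difference between the groups among the members. Its brightest probe set had log2 values of 10.05, 10.01 and 9.95 in the H animals BC4, BC5 and BC6, against 12.78 and 11.30 in the L animals BC2 and BC3. The 3 H animals were almost level, both L animals lay above all of them, and the L animals were far apart from each other. The H group averaged 10.00 ± 0.0535 (SD, n = 3) and the L group 12.04 ± 1.04 (SD, n = 2), so that H minus L was -2.03 with a standard error of 0.522, a 4.09-fold lower signal in H. The gap between the lowest L animal and the highest H animal was 1.24. Over all probe sets, 18 had a more negative difference, and the groups overlapped for all but 8 of these 18. AKR1CL1 was chosen with this contrast known, so nothing is read from its rank.

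The other 2 probe sets of AKR1CL1 did not show this pattern. The intermediate one was at 6.51, 8.72 and 6.16 in BC4, BC5 and BC6 of H, against 8.42 and 8.06 in BC2 and BC3 of L. Here 2 H animals were low and BC5, also of H, was the highest of all 5, so the groups overlapped. The H group averaged 7.13 ± 1.39 (SD, n = 3) and the L group 8.24 ± 0.253 (SD, n = 2), so that H minus L was -1.11 with a standard error of 0.985.

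The last probe set of the gene was dim, at 3.19, 4.15 and 3.12 in the H animals BC4, BC5 and BC6, against 3.18 and 3.59 in the L animals BC2 and BC3. BC5 was again the highest, and the difference of 0.10 (standard error 0.428) was small beside its error and turned negative without BC5 or without BC2. Centred on their own means, the profiles of the brightest and the intermediate probe set were 1.04 apart (root mean square over the 5 animals), with a largest gap of 1.95 in BC5. The dim probe set was 0.82 from the intermediate and 1.26 from the brightest one. With the 3 probe sets averaged, the difference of AKR1CL1 was -1.01 in place of -2.03.

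These 3 probe sets are annotated to 1 gene and read the same RNA on the same array, so they are not replicates of each other. In the RefSeq annotation of the pig assembly Sscrofa11.1, AKR1CL1 has UCN3 and TUBAL3 on one side and a run of relatives on the other, with AKR1C1, which is listed there more than once, and AKR1E2. Which of these relatives a probe set can also bind was not tested, and its sequence was not used here. The probe sets annotated to AKR1C1 and AKR1E2 themselves were at the floor in all 5 animals.

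**Figure D1:**
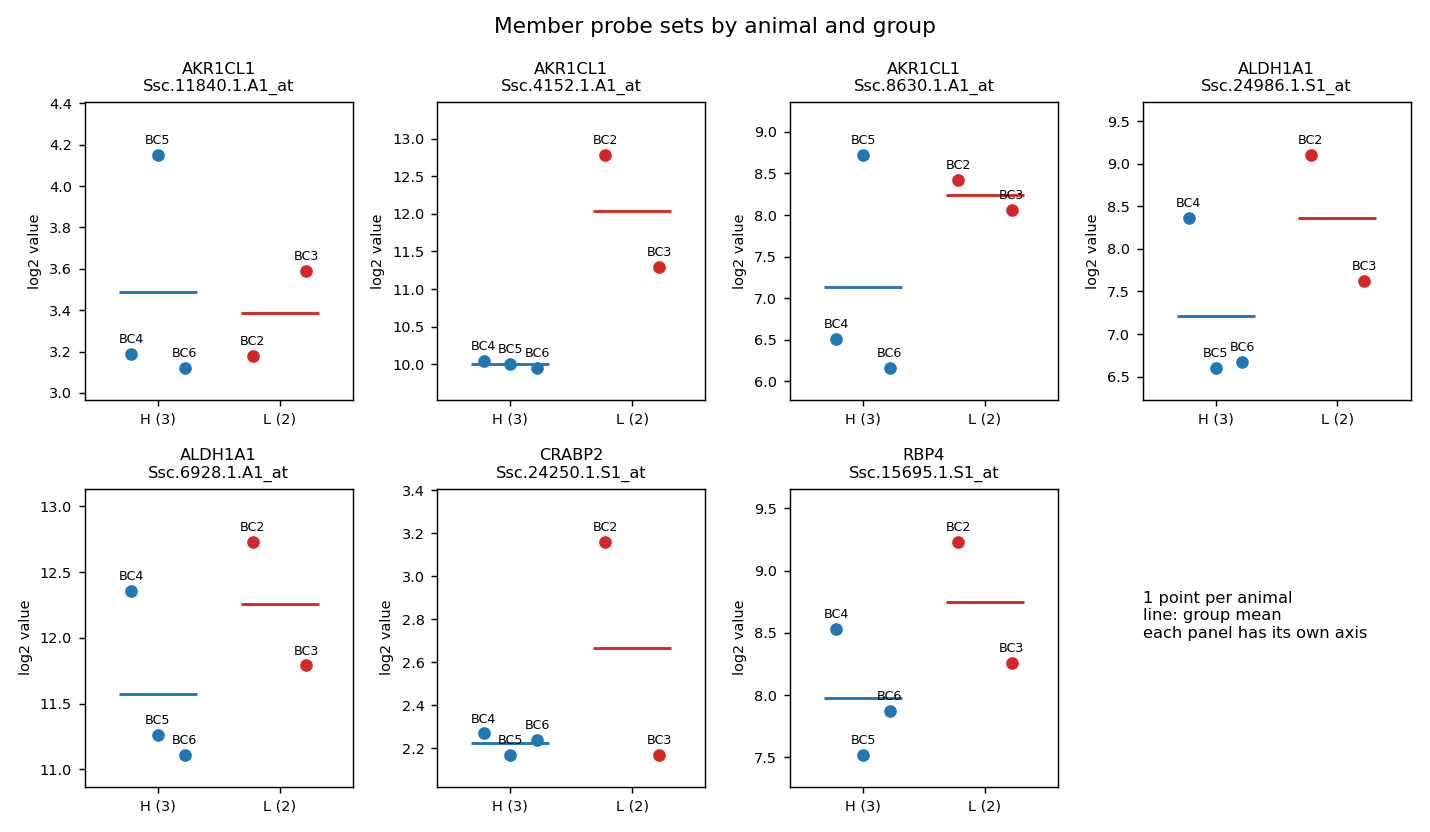
Log2 value of the 7 member probe sets above the floor, 1 point per animal with H (BC4, BC5, BC6) left of L (BC2, BC3), a line at each group mean, and a separate vertical axis in each panel. Each panel is titled with the probe set's own name. Only the brightest AKR1CL1 probe set has both L animals above all 3 H animals, and BC2 is the highest animal in 5 of the 7 panels.

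ALDH1A1, which oxidizes retinal to retinoic acid and also other aldehydes, had 2 probe sets that followed each other. The bright one was at 12.36, 11.26 and 11.11 in BC4, BC5 and BC6 of H, against 12.73 and 11.79 in BC2 and BC3 of L. BC5 and BC6 were lower than both L animals, while BC4 lay between them, so the groups overlapped by 1 animal. The H group averaged 11.58 ± 0.680 (SD, n = 3) and the L group 12.26 ± 0.666 (SD, n = 2), so that H minus L was -0.69 with a standard error of 0.583.

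The dimmer ALDH1A1 probe set was at 8.36, 6.60 and 6.67 in the H animals BC4, BC5 and BC6, against 9.10 and 7.62 in the L animals BC2 and BC3. BC4 again stood between the L animals, above BC3. The H group averaged 7.21 ± 0.994 (SD, n = 3) and the L group 8.36 ± 1.05 (SD, n = 2), so that H minus L was -1.15 with a standard error of 0.874. Both probe sets put BC2 highest, then BC4, then BC3, and their centred profiles were 0.35 apart, with a largest gap of 0.55. The spread within each group was thus about as large as the difference between the groups for both.

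RBP4, the retinol carrier of blood, was measured by 1 of its 2 probe sets. That probe set was at 8.53, 7.52 and 7.87 in BC4, BC5 and BC6 of H, against 9.23 and 8.26 in BC2 and BC3 of L. BC5 and BC6 were below both L animals, and BC4 fell between BC2 and BC3. The H group averaged 7.97 ± 0.514 (SD, n = 3) and the L group 8.74 ± 0.687 (SD, n = 2), so that H minus L was -0.77 with a standard error of 0.499. The second RBP4 probe set was at the floor in every animal and gives no level.

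CRABP2, the carrier of retinoic acid to its receptors, was close to the floor. Its single probe set was at 2.27, 2.17 and 2.24 in the H animals BC4, BC5 and BC6, against 3.16 and 2.17 in the L animals BC2 and BC3. BC2 alone stood above the other 4 animals, and 2 of the arrays, BC5 of H and BC3 of L, were at the floor. The difference of -0.44 (standard error 0.352) therefore rests on 1 L animal. A signal near the floor on a single probe set does not show that the transcript was absent. By RNA-Seq over its whole groups, the paper counted CRABP2 reads in both groups and reports higher expression in L.

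Over all 5 animals, each of the 7 member probe sets above the floor had a wider range than the median probe set, although the 3 H animals were close together for the brightest AKR1CL1 probe set and for CRABP2. The range over the 5 animals was 2.83 for the brightest AKR1CL1 probe set, 2.55 for the intermediate one, 2.50 for the dimmer and 1.62 for the bright ALDH1A1 probe set, 1.71 for RBP4, 1.02 for the dim AKR1CL1 probe set and 0.99 for CRABP2. The median range of the 17376 probe sets above the floor was 0.58. The brightest AKR1CL1 probe set was at the 98.5th percentile of these ranges and CRABP2 at the 75.0th. These ranges use the same values as the choice of the genes.

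ALDH1A1 and RBP4 shared an animal order that did not separate the groups. RBP4 ran BC2, BC4, BC3, BC6, BC5 from high to low, with the H animal BC4 second, and the dimmer ALDH1A1 probe set had the same order. In the bright ALDH1A1 probe set only BC5 and BC6 changed places. The centred profile of the bright one was 0.20 from that of RBP4, with a largest gap of 0.32. That of the dimmer one was 0.41 from RBP4, with a largest gap of 0.58. The 3 AKR1CL1 probe sets were 0.71 to 1.15 from RBP4. These distances also depend on how widely each probe set varied about its own mean (root mean square). This was 0.586 for RBP4, 0.622 for the bright and 0.965 for the dimmer ALDH1A1 probe set, and 0.387 to 1.1 for AKR1CL1.

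**Figure D2:**
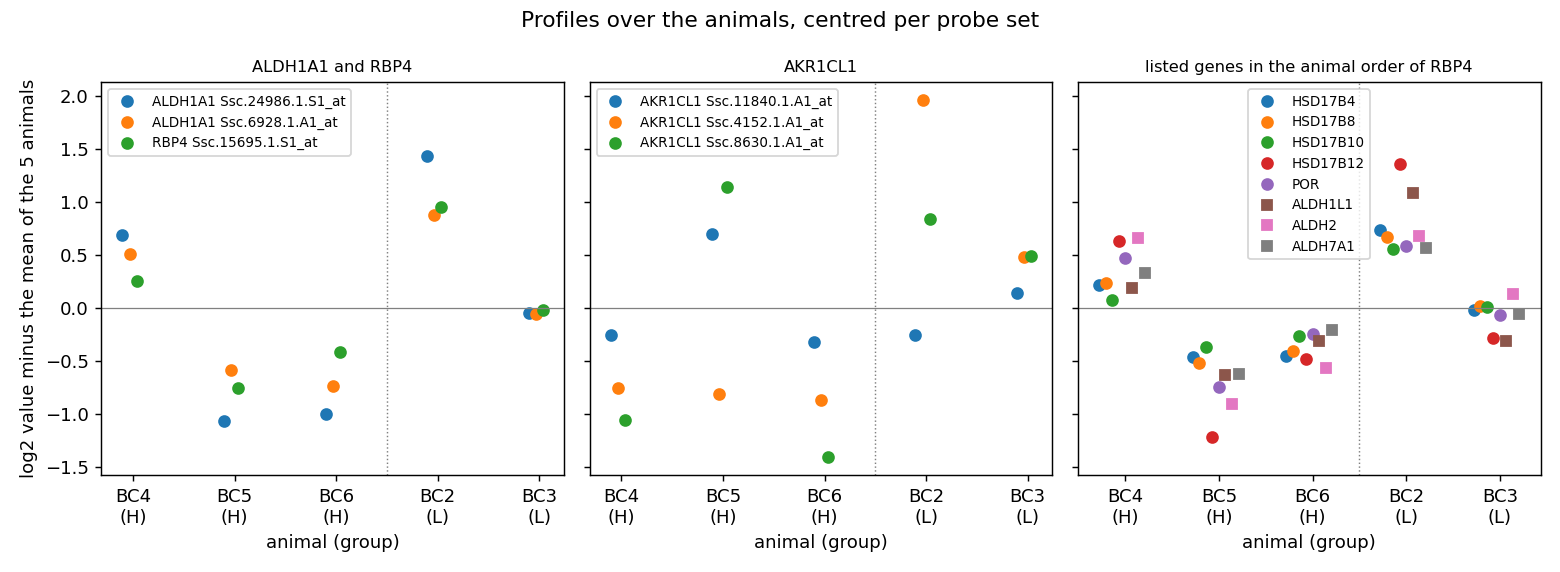
Log2 value minus the mean of the 5 animals for the ALDH1A1 and RBP4 probe sets, the 3 AKR1CL1 probe sets, and 8 listed genes that have the animal order of RBP4, with the H animals left of the dotted line and the L animals right of it. ALDH1A1 and RBP4 are high in BC2 and BC4 and low in BC5 and BC6, while BC5 is high for 2 AKR1CL1 probe sets and low for the brightest one.

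The order of RBP4 was looked for in other genes after its values had been seen. Of the 12730 probe sets with 5 distinct values, 323 (2.54%) had the same order of all 5 animals, and BC2 was highest in 21.4%. With 1 probe set per gene it was 167 of 4855 genes (3.44%). Among listed steroid genes with 5 distinct values it was 5 of 20, namely HSD17B4, HSD17B8, HSD17B10, HSD17B12 and POR, and among listed aldehyde dehydrogenases 3 of 8, namely ALDH1L1, ALDH2 and ALDH7A1. Among listed retinoid genes it was 1 of 23, CES1. Some of these orders rest on nearly level values and are not resolved. ALDH2 was at 11.16 in BC2 and 11.15 in BC4, and ALDH1L1 at 9.05 in both BC3 and BC6. The genes of these lists share the arrays and were not tested as a set.

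HSD17B12, which acts in fatty acid elongation as well as on steroids, was at 12.25, 10.40 and 11.13 in BC4, BC5 and BC6 of H, against 12.97 and 11.33 in BC2 and BC3 of L. HSD17B4, an enzyme of peroxisomal beta-oxidation, was at 12.84, 12.16 and 12.17 in H, against 13.36 and 12.61 in L. ALDH2, the mitochondrial aldehyde dehydrogenase, was at 11.15, 9.58 and 9.92 in H, against 11.16 and 10.62 in L. All 3 are among the genes just named for having the order of RBP4, so BC2 of L highest and BC4 of H next is given by that choice. The differences were -0.89 for HSD17B12, -0.59 for HSD17B4 and -0.67 for ALDH2 (adjusted p = 1 each, limma).

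Of all genes with 1 symbol, those nearest in centred profile to the dimmer ALDH1A1 probe set were LDHD, a mitochondrial lactate dehydrogenase, at a root mean square distance of 0.144, ELOVL6, a fatty acid elongase, at 0.181, and ME1, the cytosolic malic enzyme, at 0.206. HSD17B12 (0.263) and PPP1R1A (0.275) followed. ELOVL6 was at 13.64, 11.34 and 11.56 in the H animals BC4, BC5 and BC6, against 14.08 and 12.67 in the L animals BC2 and BC3. BC4 was again nearer to BC2 than to BC5 or BC6, which largely follows from choosing the gene by its profile. The nearest to the bright ALDH1A1 probe set were ECHDC2 (0.0892), THTPA (0.0976), PDHB, a subunit of pyruvate dehydrogenase (0.114), and both probe sets of ABCD3, a peroxisomal transporter (0.119 and 0.124).

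The nearest to RBP4 was a probe set of HSP90AA1, a cytosolic chaperone, at a distance of 0.0384, with values of 8.72, 7.74 and 8.01 in BC4, BC5 and BC6 of H, against 9.35 and 8.39 in BC2 and BC3 of L. LOC100154081 (0.0997), MCRIP2 (0.105), NDUFA10, a subunit of respiratory complex I (0.111), and ECHS1, an enoyl-CoA hydratase of mitochondrial beta-oxidation (0.116), came next. With 5 animals a close profile is a description only, and many genes can share one.

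The neighbours of AKR1CL1 differed between its probe sets, and those of the brightest and intermediate ones were less close. The distances are to be read against each probe set's own root mean square spread about its mean. This spread was 1.1 for the brightest, 1.04 for the intermediate and 0.387 for the dim probe set. The nearest to its brightest probe set was DDIT3, a stress-induced transcription factor, at 0.377, with values of 6.19, 6.73 and 6.61 in the H animals BC4, BC5 and BC6, against 8.58 and 7.22 in the L animals BC2 and BC3. ZNF106 (0.436), ISOC1 (0.451), F5, coagulation factor V (0.454), and SLC46A3 (0.460) followed, all with both L animals above the 3 H animals. For the intermediate probe set the nearest was AZGP1, a secreted lipid-mobilizing protein, at 0.554, followed by GRK4 (0.586), MEIS1 (0.586), LOC100739425 (0.592) and ZUFSP (0.599). For the dim probe set they were MEIS2 (0.0389), SLC44A2 (0.0577), INF2 (0.0722), CHD7 (0.0828) and DNMT1 (0.0869), each highest in BC5 of H. Since all these genes were chosen for a close profile, the animals in which they are high or low largely follow from that choice. No gene was among the 5 nearest of more than 1 AKR1CL1 probe set.

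The rest of the retinoid pathway did not pass the test. Of 68 listed genes other than the members, 31 were represented by a probe set with that symbol alone, and 27 of them had signal above the floor. Of these 27, 16 had a lower and 11 a higher mean in H, 0 passed (limma), and 3 had an unadjusted p under 0.05 (PNPLA4, ADH5 and NCOR1). Their median difference was -0.12, where the median of the 5817 genes above the floor was 0.00 and 49.2% had a lower mean in H. No probe set carried as its single symbol CRABP1, STRA6, LRAT, RDH5, RDH10, RDH16, DHRS3, ALDH1A2 or ALDH1A3, so these carriers and enzymes, the other retinaldehyde dehydrogenases among them, were not measured here.

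Among carriers, RBP7, a cellular retinol binding protein, was at 10.29, 11.73 and 9.04 in BC4, BC5 and BC6 of H, against 8.73 and 9.60 in BC2 and BC3 of L. BC4 and BC5 were the highest and BC2 the lowest, the opposite of RBP4 for BC2, and the groups overlapped through BC6. The difference was 1.19 (standard error 0.999, adjusted p = 1, limma). The summed linear signal of 8 measured endothelial cell markers of 9 listed was 10200 to 18900 in H, against 8660 to 12700 in L, and like RBP7 it was highest in BC5 and lowest in BC2. Of these 8 markers, 7 had a higher mean in H, 0 passed, and KDR was at or near the floor, and their part in the RBP7 values was not tested.

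Of 19 genes listed as retinol and retinal oxidoreductases, 5 were measured, namely RDH11, RDH14, DHRS4, DHRS7 and ADH5. All 5 had a lower mean in H, as did 49.2% of all genes above the floor. Their median difference was -0.53, and 0 passed. DHRS7, a short-chain dehydrogenase reported to act on retinoids and steroids, was at 9.86, 9.23 and 9.74 in BC4, BC5 and BC6 of H, against 11.17 and 10.03 in BC2 and BC3 of L. RDH11, a retinal reductase, was at 9.39, 9.06 and 9.40 in H, against 10.18 and 9.57 in L. For both genes the L animals lay above the H animals, by 0.18 for DHRS7 and by 0.16 for RDH11. Of the 23 listed retinoid genes with 5 distinct values, H lay below L for 5 and above L for 0. Over all 4855 such genes these counts were 546 and 461. The differences were -0.99 (standard error 0.465) for DHRS7 and -0.59 (standard error 0.255) for RDH11, with an adjusted p of 1 each from limma. Without BC2 these differences were -0.42 and -0.28.

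PNPLA4, a lipase with retinyl ester hydrolase activity, had the smallest p of the list but was dim. It was at 2.29 in each of the 3 H animals, against 2.64 and 2.73 in the L animals, a difference of -0.40 (adjusted p = 0.69, limma). With 3 equal values this near the floor, almost no spread was measured within H. CES1, a carboxylesterase that can release retinol from its esters, was at 11.29, 7.94 and 10.33 in BC4, BC5 and BC6 of H, against 11.65 and 10.65 in BC2 and BC3 of L, with BC5 far below the other animals.

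Of the receptors of retinoids, the probe sets of RARA, RARB and RXRA were at the floor on all arrays. RXRB was at 5.86, 6.24 and 5.14 in BC4, BC5 and BC6 of H, against 5.70 and 6.29 in BC2 and BC3 of L, and the groups overlapped. RXRG, a retinoid X receptor, was at 4.64, 2.41 and 2.72 in the H animals BC4, BC5 and BC6, against 3.81 and 2.77 in the L animals BC2 and BC3, a difference of -0.03 (standard error 0.925). BC4 and BC2 were the highest, 1 from each group. RARRES2, the secreted chemerin, which retinoids induce in skin, was at 9.03, 9.72 and 10.45 in H, against 9.29 and 10.41 in L, with a difference of -0.12 (standard error 0.640). The coactivator NCOA1 had both L animals above all H animals on its brightest probe set (difference -0.24), but the groups overlapped or tied on 4 of its other 5.

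The steroid pathway was likewise without a call. Of 67 listed genes other than the members, 38 were represented and 29 had signal above the floor, of which 15 had a lower and 13 a higher mean in H, with a median of -0.01. With each array centred on its median, 23 of the 29 were lower, since this scaling moves every difference down by a few hundredths. Of these 29, 0 passed (limma) and 3 had an unadjusted p under 0.05 (AKR1A1, AKR7A2 and FDX1). The probe sets of CYP11A1 and CYP17A1, which make steroids from cholesterol, were at the floor, and CYP19A1, the aromatase, did not exceed 2.22. AKR1B1, AKR1C4 and SRD5A1 were the single symbol of no probe set.

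HSD11B1, which regenerates cortisol in fat, was at 10.76, 11.14 and 10.61 in the H animals BC4, BC5 and BC6, against 9.62 and 11.15 in the L animals BC2 and BC3. BC2 was the lowest and BC3 the highest, so the 2 L animals enclosed the whole H group. The difference of 0.46 (standard error 0.572) turned to -0.31 without BC2 and was 1.22 without BC3. The glucocorticoid receptor NR3C1 was at 5.74, 6.08 and 5.85 in H, against 5.92 and 5.85 in L, a difference of 0.00 (standard error 0.125).

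Of the listed aldo-keto reductases other than AKR1CL1, 2 were above the floor and both separated the groups, in opposite directions. AKR7A2, which reduces aldehydes, was at 5.81, 5.65 and 5.72 in BC4, BC5 and BC6 of H, against 6.33 and 5.97 in BC2 and BC3 of L, a difference of -0.42 (standard error 0.140). AKR1A1, the aldehyde reductase, was at 9.05, 8.99 and 8.94 in H, against 8.79 and 8.80 in L, a difference of 0.20 (standard error 0.0387). H thus lay below L for AKR7A2 and above L for AKR1A1, and the adjusted p was 1 for each (limma). FKBP4, a co-chaperone of steroid receptors, differed by -0.36 and PGRMC1, a haem-binding membrane protein, by 0.40, also with no overlap and an adjusted p of 1 (limma). For PGRMC1 the groups were only 0.01 apart. Of the 20 listed steroid genes with 5 distinct values, H lay below L for 3 and above L for 2. Over all 4855 genes with 5 distinct values, H lay below L for 546 and above L for 461, so separation alone was common.

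The aldehyde dehydrogenases other than ALDH1A1 had a lower mean in H for 8 of the 8 genes above the floor, at a median of -0.44, and 0 passed (limma), with 0 at an unadjusted p under 0.05. Without BC2, 5 of the 8 were lower and the median was -0.07. Of 17 listed, 10 had a probe set, and ALDH1L2 and ALDH5A1 were at the floor. ALDH9A1, which acts in carnitine synthesis, was at 12.18, 11.66 and 12.04 in the H animals BC4, BC5 and BC6, against 12.47 and 12.37 in the L animals BC2 and BC3, the only one of the 8 without overlap (difference -0.46, standard error 0.192, adjusted p = 1, limma). ALDH4A1, of proline breakdown, ranged most, at 5.48, 4.97 and 4.30 in H, against 7.14 and 4.86 in L. BC2 was the highest animal in 6 of these 8 genes, where it was the highest in 22.8% of 4855 genes.

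**Figure D3:**
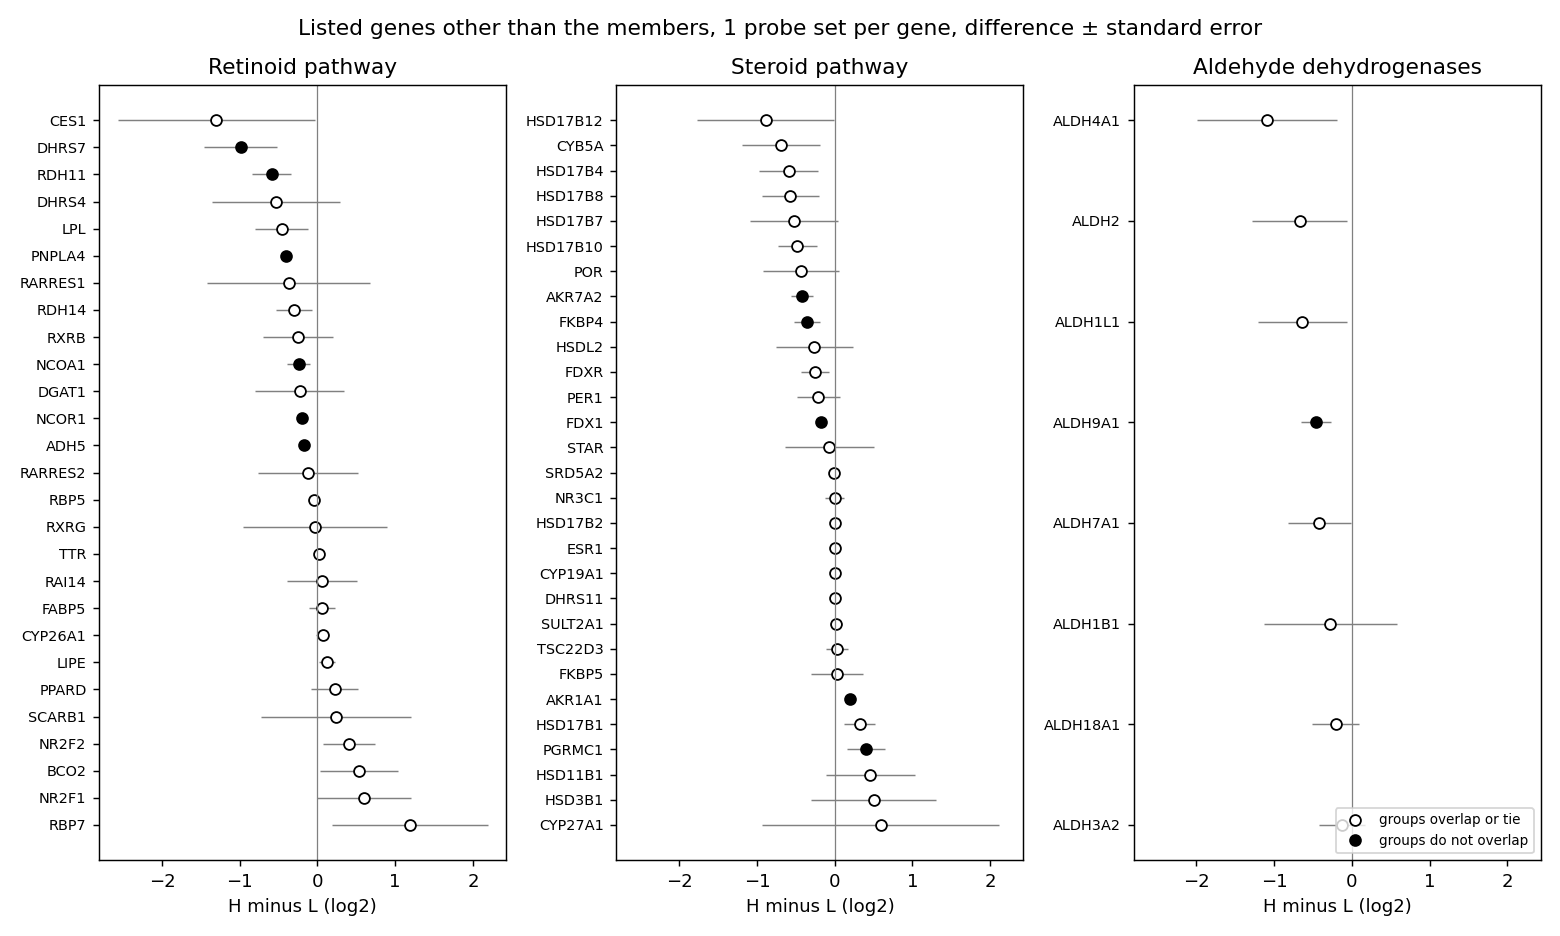
Difference H minus L (log2) with its standard error from limma for the listed genes above the floor other than the members, 1 probe set per gene, with filled points where the groups do not overlap. All 8 aldehyde dehydrogenases lie left of 0, the retinoid and steroid genes lie on both sides, and no gene passed the test.

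The differences of the members depended on which L animal was present. For the brightest AKR1CL1 probe set the difference was -1.29 without BC2 and -2.77 without BC3, with both L animals above H in turn. It was -0.41 without BC2 and -1.89 without BC3 for the dimmer ALDH1A1 probe set, and -0.21 and -1.16 for the bright one. RBP4 was at -0.29 without BC2 and -1.26 without BC3. CRABP2 was at 0.06 without BC2, where all values left were near the floor, and at -0.93 without BC3. For the intermediate AKR1CL1 probe set it was an H animal, BC5, that weighed most, with a difference of -1.90 without it.

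**Figure D4:**
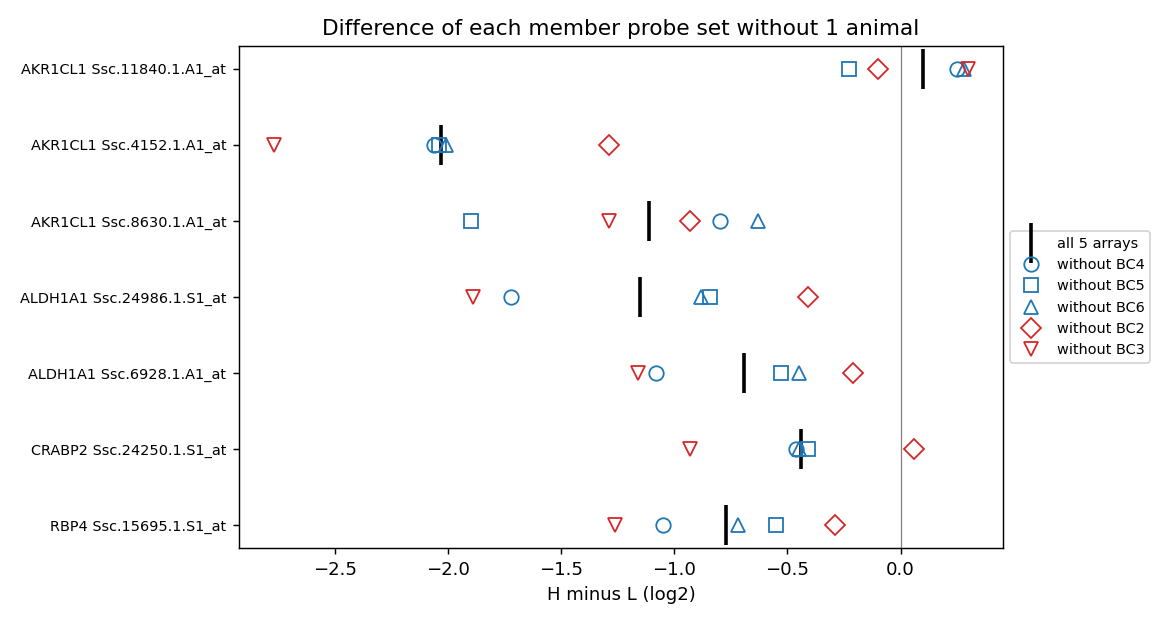
Difference H minus L (log2) of each member probe set with all 5 arrays (bar) and without 1 animal (open symbols, H animals in blue and L animals in red). Leaving out BC2 gives -0.41 and -0.21 for the 2 ALDH1A1 probe sets, -0.29 for RBP4 and 0.06 for CRABP2, while the brightest AKR1CL1 probe set stays between -2.77 and -1.29.

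The summed linear signal of 8 measured adipocyte markers of 11 listed was 65300 to 72600 in H, against 67000 to 75300 in L, with BC2 highest, BC4 second and BC5 lowest, and 5 of the 8 had a lower mean in H. Most of that sum was FABP4, which was nearly level, while some other adipocyte markers moved widely in BC5 of H. ADIPOQ, the adipokine adiponectin, was at 12.20, 9.09 and 10.92 in BC4, BC5 and BC6 of H, against 11.82 and 10.52 in BC2 and BC3 of L. LEP, which encodes leptin, was at 8.27, 4.41 and 10.48 in H, against 9.33 and 8.43 in L. BC5 was thus the lowest animal for both genes, as for RBP4 and the dimmer ALDH1A1 probe set, and also for LPL (12.84) and GPD1 (10.21). BC5 was the highest animal for FABP4 (15.49) and LIPE (12.40), and it was not the lowest for CIDEA (11.76) or PPARG (10.50). However, these genes hardly varied, with ranges over the 5 animals of 0.13 for FABP4, 0.28 for LIPE, 0.39 for CIDEA and 0.51 for PPARG. Low values in BC5 were thus seen for those adipocyte markers that varied more widely. The fibroblast markers, 6 measured of 9, summed to 23600 to 46800 in H, against 32100 to 35900 in L, and were highest in BC6 of H. The hepatocyte markers, 10 measured of 11, summed to 63.0 to 83.5 in H, against 61.7 to 98.0 in L. The smooth muscle markers, 6 measured of 7, summed to 8530 to 15000 in H, against 6550 to 12000 in L, were lowest in BC2, and had a higher mean in H for all 5 that were above the floor. The skeletal muscle markers, 6 measured of 9, summed to 34.4 to 574 in H, against 36.8 to 124 in L. They ran BC5, BC3, BC4, BC2, BC6 from high to low, as did the dim AKR1CL1 probe set. In that probe set, however, BC4, BC2 and BC6 were nearly level at 3.19, 3.18 and 3.12, so their order is not resolved. How many probe sets have this order was not counted. The intermediate AKR1CL1 probe set was also highest in BC5 but ran BC5, BC2, BC3, BC4, BC6. None of these markers passed the test (limma, 0 in each list). The part of the cell make-up in the values of the members was not tested.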

How the data were processed

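Backfat RNA of 5 pigs was hybridized to Affymetrix porcine arrays, 1 per animal. The deposited values are log2 values per probe set, which the authors had adjusted for background, normalized and summarized. The submitters' processing notes name RMA and the methods GCRMA, so the method is not settled. The labels give animal names only, and animals were placed in H and L by these names as the study assigns them. No genome build belongs to the values, and the RNA-Seq data of the study were not analysed here.

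Members and gene lists were chosen with earlier results of these data known. After 124 controls were left out, H minus L was fitted for 23999 probe sets with limma 3.58.1 in R 4.3.3, without covariates. A probe set passed when its p-value was under 0.01, its adjusted p under 0.1 and its fold difference over 1.2, and standard errors are the moderated ones. The number of arrays limits the precision. Annotation gave 1 symbol for 10069 probe sets (6765 genes), several for 198 and none for 13732. For listed genes the probe set with the highest mean was used. Named genes were all member probe sets, listed genes chosen by role, up to 4 per family with the largest difference among those without overlap, and the 5 nearest profiles of member probe sets with a range over 1. The genes with the animal order of RBP4, those with an unadjusted p under 0.05, and CES1, RXRB and ALDH4A1 were added after their values were seen. Marker sums are of values taken off the log scale. The fit was tested on simulated data.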

Additional observations from a re-analysis of the deposited data

How the results depend on the processing

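No paired analysis was possible because each array is a separate animal and the labels pair no H animal with an L animal. Alternatives were another threshold, no fold limit, a filter on the dimmest 40% of probe sets, other scalings, variance models and array weights, group medians, any probe set of a gene, and each animal left out in turn. Averaging the probe sets of a gene and dropping those at the floor were chosen after seeing the data.

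Over all probe sets, no alternative that kept the 5 arrays gave a call except an unadjusted p under 0.05 alone, with 762 probe sets, 3 of the retinoid and 3 of the steroid genes. Leaving out 1 animal gave 0 to 286 probe sets, with 160 without L replicate 2 (BC2) and 286 without L replicate 3 (BC3). The lone L array was then assumed to vary like the H arrays, and the cause was not tested. The counts of retinoid and steroid genes given here leave out the members. Leaving out 1 animal gave 0 to 1 retinoid genes (PNPLA4, without either L animal) and 0 to 2 steroid genes (FDXR and FKBP4, without BC3), and FDXR was at 4.73 in all but BC2. The brightest AKR1CL1 probe set ran from -2.77 to -1.29 without 1 animal and was -1.01 as the mean of the gene's probe sets, and CRABP2 ran from -0.93 to 0.06. The other member probe sets moved by less than the spread between replicates, though the dim AKR1CL1 probe set changed sign in 4 settings (array weights, group medians, without BC5 and without BC2). With 3 arrays against 2 and 27.6% of probe sets at the floor, neither small differences nor those of dim probe sets can be resolved.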
